A study of Mus musculus with 12 samples.

Results

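Peritoneal macrophages (PMs) that received exosomes of sensory neurons overexpressing miR-21 were compared with PMs that received exosomes of sensory neurons carrying a GFP reporter, on all 12 Affymetrix mouse arrays of the series. The 6 arrays with miR-21 exosomes and the 6 with GFP exosomes were chosen by the exosome named in their labels. Each set of 6 held 2 arrays of PMs given lipofectamine, 2 of PMs transfected with a scramble control oligonucleotide and 2 of PMs transfected with antagomir-21, an antisense oligonucleotide against miR-21, so that both exosomes met each of the 3 transfections equally. The lipofectamine groups are named in the labels only (as Lipofectamin), and what their cells received besides the reagent is not given there. All groups thus had the transfection reagent and neuronal exosomes, and no array of PMs without exosomes was analysed here. By the study's methods the work was done in C57BL/6 mice, and the labels give no age. The methods describe replicates of each condition as biological and collected independently, in triplicate, whereas 2 arrays per group were analysed here, and the labels do not tie an array to a culture or animal. Of 18193 genes, each read by 1 probe set, 5123 (28.2%) had a mean signal with miR-21 exosomes that lay on the same side of that with GFP exosomes in all 3 transfections, and these genes are described most closely.

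Exosomes are small vesicles that cells release and other cells take up, and they can carry microRNAs between them. A microRNA pairs through its seed, the stretch near its 5′ end, with sites that lie mostly in the 3′ untranslated regions of mRNAs, and thereby lowers the stability and translation of these mRNAs. miR-21 is abundant in macrophages, and its best known targets include *Pdcd4*, an inhibitor of translation, and *Spry2*, a feedback inhibitor of receptor tyrosine kinase signaling. The question of the comparison was which transcripts of PMs differ with the miR-21 cargo of neuronal exosomes, whatever the transfection.

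The sequences of the delivered microRNA are shown because its seed defines what it can pair with. Both arms of the mouse miR-21a hairpin lie on the minus strand of chromosome 11 in the RefSeq annotation of GRCm38.p6, the 5p arm at chr11:86584120-86584141 and the 3p arm at chr11:86584082-86584103. They read, 5′ to 3′ and with the seed (bases 2 to 8) in capitals:
mmu-miR-21a-5p: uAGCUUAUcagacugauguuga
mmu-miR-21a-3p: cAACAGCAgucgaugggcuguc
Of 1738 mature mouse microRNAs in the same table, 2 carry the seed of the 5p arm, mmu-miR-21a-5p itself and mmu-miR-21c. These arrays do not read mature miR-21. *Vmp1*, the gene that overlaps the miR-21 precursor, had a log2 signal of 11.10 ± 0.50 (SD, n = 6) with miR-21 exosomes and 11.53 ± 0.26 (SD, n = 6) with GFP exosomes, a difference of −0.44 (SE 0.44), so delivery of the exosome cargo cannot be checked from these values.

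The arrays carried the transcripts of macrophages at the top of their range. *Csf1r*, the CSF-1 receptor on which macrophages depend, lay at 16.50 ± 0.82 (SD, n = 6) with miR-21 exosomes and 16.36 ± 0.55 (SD, n = 6) with GFP exosomes. *Adgre1*, which encodes F4/80, lay at 12.76 ± 0.64 and 12.98 ± 0.67, and *Lyz2*, which encodes lysozyme, at 16.88 ± 0.86 and 17.00 ± 0.85 (SD, n = 6 each). The values are log2 signals scaled by the authors to one trimmed mean per array, and array medians ran from 8.11 to 8.58 with miR-21 exosomes and from 7.92 to 8.45 with GFP exosomes. Arrays of one group were no more alike than other arrays: the mean Pearson r across genes was 0.591 for 6 pairs of the same group, 0.605 for 24 pairs with the same exosome and different transfections, and 0.601 for 36 pairs with different exosomes (genes are not independent replicates).

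No gene differed between the exosomes at an adjusted p under 0.05 by limma with transfection as a term (0 of 18193, 0%). At an unadjusted p under 0.05, the threshold named in the study's methods, 976 genes (5.36%) differed, 698 of them (3.84%) higher and 278 (1.53%) lower with miR-21 exosomes. Of the 976 genes, 872 (89.3%) had the same direction in each transfection (625 higher and 247 lower), against 28.2% of all genes. The 976 genes were chosen by a fit to the same arrays, and a low p in that fit favors a shared direction. The high share thus follows largely from the choice and is no test of replication, for which arrays held out from the choice are read below. The split between the directions moved with the scaling of the arrays: 71.5% of the genes were higher with the deposited scaling, 57.7% (517 higher, 379 lower) after quantile normalization and 49.4% (462 higher, 474 lower) after each array was centred on its median, which moved the median log2 difference of all genes from −0.02 to −0.23. All 6 arrays with miR-21 exosomes lay above all 6 with GFP exosomes for 35 genes (0.192%) and below them for 17 genes (0.0934%).

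The highest ranked genes were higher with miR-21 exosomes and dim with GFP exosomes. *Cd6* (gene ID 12511), which encodes a surface glycoprotein of T cells, had a lowest, median and highest log2 signal of 5.79, 8.05 and 9.0 on the 6 arrays with miR-21 exosomes, and of 3.08, 3.75 and 4.31 on the 6 with GFP exosomes. *Sema5b* (gene ID 20357), a semaphorin that guides axons, had 7.84, 8.61 and 9.59 against 3.11, 4.74 and 5.80. *Prss52* (gene ID 73382), a serine protease of the trypsin family, had 6.27, 8.12 and 9.21 against 3.01, 3.83 and 5.06. For each of these genes every array with miR-21 exosomes was above every array with GFP exosomes, in all 3 transfections. The log2 difference was 4.04 (SE 0.57) for *Cd6*, 3.99 (SE 0.55) for *Sema5b* and 3.98 (SE 0.55) for *Prss52*, and all 3 had the lowest adjusted p of the comparison (adjusted p = 0.0756 from limma). Within lipofectamine, scramble and antagomir-21 the difference was 4.09, 4.45 and 3.58 for *Cd6*, 3.46, 5.04 and 3.46 for *Sema5b*, and 4.70, 4.14 and 3.10 for *Prss52*. With a variance that depends on mean signal the lowest adjusted p of any gene was 0.923 from limma, after quantile normalization *Cd6* passed (adjusted p = 0.0308), and with the second antagomir-21 array of the miR-21 exosomes left out *Prss52* passed (adjusted p = 0.0352).

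The other 9 of the 12 genes with the smallest p among those higher in all 3 transfections included both granzymes *Gzmc* and *Gzma*, proteases of cytotoxic lymphocytes. *Gzmc* averaged 7.91 ± 1.21 with miR-21 exosomes and 4.60 ± 0.36 with GFP exosomes (log2 signal, SD, n = 6 each), with no overlap. *Gzma* averaged 7.51 ± 1.44 and 4.35 ± 1.37 (SD, n = 6 each), and its arrays overlapped. The rest were *Myh6*, the cardiac myosin heavy chain α (log2 difference 3.92), *Wnt4*, a Wnt ligand (3.0), *Pyy*, the gut hormone peptide YY (3.05), the vomeronasal receptor *Vmn1r47* (4.12), the lipocalin *Lcn11* (3.56), the keratin-associated *Krtap15* (3.09) and *Sh3rf2*, a RING finger protein (3.09). Their adjusted p from limma was 0.277 for each of the 9. None of the 12 genes reached a mean log2 signal over all arrays above 7.31, against a median of 7.91 over all genes, and most are known from tissues other than macrophages. *Gzmc* and *Vmn1r47* belong to families of similar genes, and how far their probe sets read relatives is not known from the table.

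Genes lower with miR-21 exosomes were led by *Eqtn* (gene ID 67753), which encodes the sperm protein equatorin, and *Mpv17l2* (gene ID 234384), a mitochondrial inner membrane protein needed for the mitochondrial ribosome. *Eqtn* had a lowest, median and highest log2 signal of 3.99, 4.42 and 5.68 with miR-21 exosomes and of 6.59, 7.74 and 8.84 with GFP exosomes. *Mpv17l2* had 4.86, 5.33 and 5.99 against 7.04, 8.84 and 9.12. Neither gene had overlapping arrays, and both were lower in each transfection, by −2.79, −3.40 and −3.31 for *Eqtn* and by −2.65, −2.99 and −3.33 for *Mpv17l2* in lipofectamine, scramble and antagomir-21. The log2 difference was −3.16 (SE 0.50, adjusted p = 0.162 from limma) for *Eqtn* and −2.99 (SE 0.50, adjusted p = 0.234) for *Mpv17l2*. The long noncoding RNA *Dlx6os1*, transcribed opposite *Dlx6*, differed by −2.67 (SE 0.50) and *Fhl1*, a LIM domain protein of muscle, by −2.47 (SE 0.54), also without overlap. The other 8 of the 12 leading genes were *Wbp2* (−2.22), *Ttc27* (−2.63), the small GTPase *Mras* (−2.09), *Pole*, the catalytic subunit of DNA polymerase ε (−2.98), *Ydjc* (−2.53), *Batf3*, a transcription factor of conventional dendritic cells (−1.98), the lysosomal transporter *Spns1* (−2.10) and *Slc25a31*, an ADP/ATP carrier (−2.50). Their arrays overlapped, and the adjusted p from limma ran up to 0.633.

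**Figure D1:**
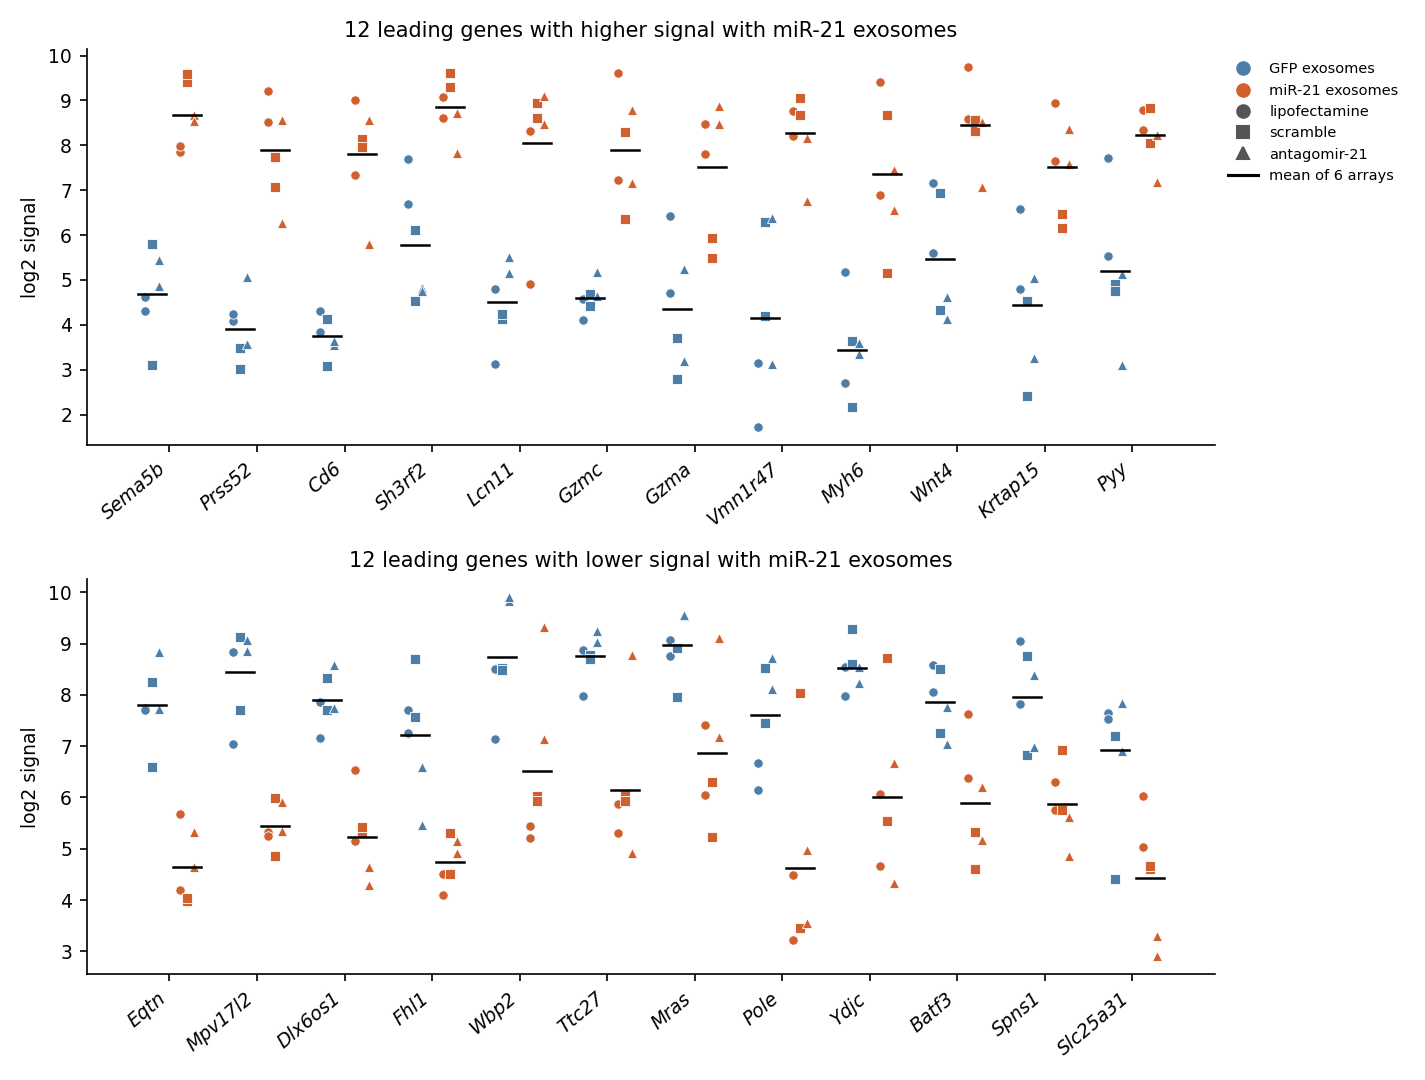
Log2 signal on each array of the 12 leading genes higher (upper panel) and the 12 leading genes lower (lower panel) with miR-21 exosomes; points are single arrays, colored by exosome and shaped by transfection, and black lines are means of 6 arrays. The 6 arrays of each exosome do not overlap for 6 genes of the upper panel and 4 of the lower panel.

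Size set few of these genes apart in every transfection. Only 66 genes were higher by at least 2 on the log2 scale in each of the 3 transfections, and 6 were lower by as much, *Eqtn*, *Mpv17l2*, *Pole*, *Ttc27*, *B4gat1* and *Spire2*. At a difference of at least 1 in each, the numbers were 434 and 184 (2.39% and 1.01% of all genes). At an unadjusted p under 0.05 in each transfection separately, 12 genes had the same direction (0.066%): *Cd6*, *Sema5b*, *Prss52*, *Gzma*, *Gzmc*, *Krtap15*, *Lcn11*, *Myh6*, *Wnt4* and *Apol6* were higher, and *Eqtn* and *Mpv17l2* lower. *Apol6* and the pair *B4gat1* and *Spire2* lie outside the rule for named genes and were named after their values were seen.

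Other probe sets gave a check within the same arrays, since each gene was represented by 1 probe set alone. Of the 24 leading genes, 6 had other probe sets, 7 in all, of which 2 shared the sign of the main one. The other probe set of *Sema5b* was higher by 1.64 and that of *Wnt4* by 0.39, whereas that of *Myh6* differed by −0.37. Both other probe sets of *Eqtn* were higher with miR-21 exosomes (1.10 and 0.67), as was that of *Fhl1* (1.80), and that of *Mras* was higher by 2.20, with the same direction in all 3 transfections. These genes were thus not read alike by their probe sets. *Cd6*, *Prss52* and *Mpv17l2* had a single probe set.

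Among genes at or above the median signal, the leading differences shared by the transfections were smaller. *Ppfia4*, a liprin of synaptic scaffolds, had a lowest, median and highest log2 signal of 8.40, 8.83 and 9.97 with miR-21 exosomes and 5.99, 6.59 and 7.83 with GFP exosomes, a difference of 2.17 (SE 0.48, adjusted p = 0.446 from limma). *Arfip2*, an arfaptin that binds small GTPases, had 8.51, 9.39 and 10.59 against 7.23, 7.97 and 8.20, a difference of 1.63 (SE 0.48). Neither gene overlapped between the exosomes. One other probe set of *Ppfia4* was lower in all 3 transfections (−2.19) and another differed by 0.25, and that of *Arfip2* differed by −0.30. The other 6 leading genes of this kind differed by 1.47 to 2.32 and included *Dgkh*, a diacylglycerol kinase (1.47, with its other probe sets at −0.26 and −0.76), *Steap1*, a metalloreductase family member (2.13), *Txlna*, a syntaxin-binding taxilin (1.80), and *Asz1*, a germ cell protein (2.32).

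Of the 8 leading genes at or above the median signal that were lower with miR-21 exosomes, *Osgepl1* and *Slc16a6* did not overlap. *Osgepl1*, which modifies mitochondrial tRNA, had 5.48, 7.50 and 9.23 with miR-21 exosomes and 9.45, 9.60 and 10.07 with GFP exosomes, a difference of −2.10 (SE 0.59). *Slc16a6*, a transporter of the monocarboxylate family, had 6.39, 8.28 and 9.23 against 9.41, 9.51 and 9.99, a difference of −1.67 (SE 0.51). In both genes the arrays with GFP exosomes lay close together, and those with miR-21 exosomes spread widely. *Maml1*, a coactivator of Notch (−1.53), *Fbxo11*, an F-box protein of ubiquitin ligases (−1.48), *Ifi47*, an interferon-inducible GTPase (−1.67), and *Zkscan3*, a zinc finger repressor of autophagy genes (−1.90), were lower in each transfection. Adjusted p from limma ran from 0.446 to 0.798 over these 16 genes. Of their 21 other probe sets, 13 shared the sign of the main one.

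The direction of the 5123 genes that lay the same way in all 3 transfections went with how bright a gene was. They numbered 2448 higher (13.5% of all genes, median difference 1.29) and 2675 lower (14.7%, median difference −0.76). Genes were ranked by mean signal and cut into 4 classes of equal size. In the dimmest class, with a mean log2 signal from 4.23 to 6.84, 961 genes (21.1%) were higher and 287 (6.31%) lower. In the brightest class, from 9.27 to 18.66, 183 (4.02%) were higher and 1373 (30.2%) lower. Most bright genes moved little, since the median difference was −0.24 in that class and only 2 genes higher and 33 lower had an unadjusted p under 0.05. Dim genes were mostly higher and bright genes mostly lower also after quantile normalization (853 higher and 333 lower in the dimmest class, 237 and 1004 in the brightest) and after median centring (784 and 400, 62 and 2156). It was also present with each array left out in turn. Without replicate 1 of scramble and miR-21 exosomes, 756 genes of the brightest class were lower and 208 higher, and without replicate 2 of antagomir-21 and miR-21 exosomes, 1057 were lower and 523 higher. The SD of an array's signals overlapped between the exosomes, from 2.04 to 2.46 with miR-21 exosomes and from 2.13 to 2.48 with GFP exosomes. Its mean was 2.23 with miR-21 and 2.34 with GFP exosomes, and the part of this spread in the pattern was not tested.

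**Figure D2:**
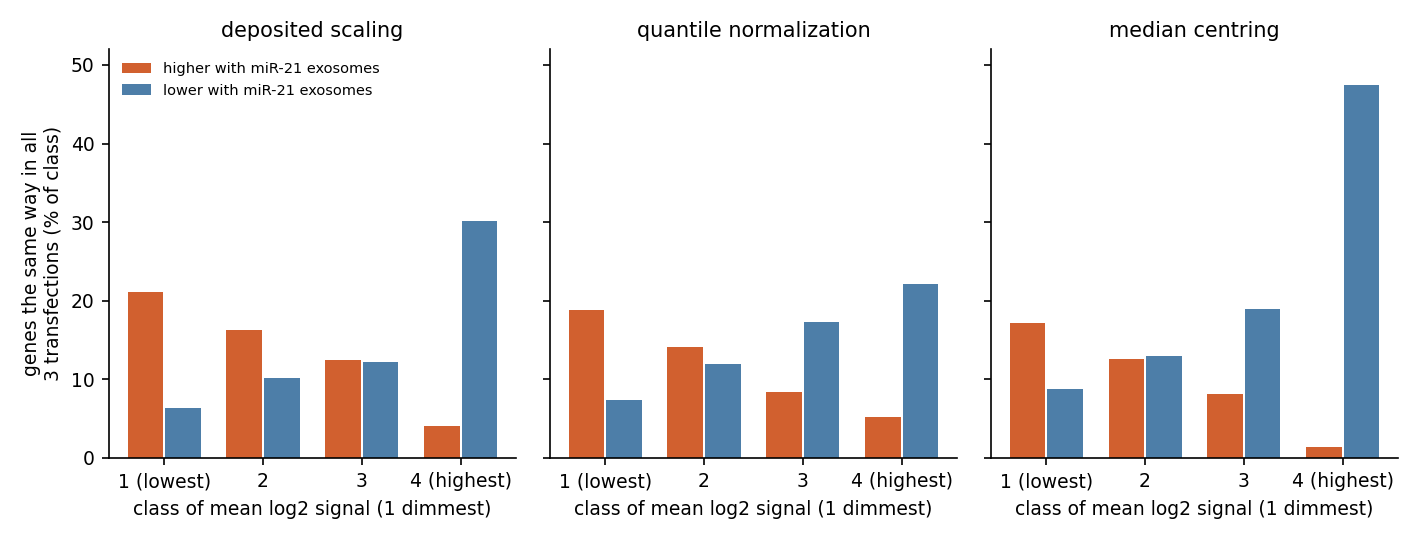
Share of genes, in percent of each of 4 classes of mean log2 signal, that were higher (orange) or lower (blue) with miR-21 exosomes in all 3 transfections, with the deposited scaling, after quantile normalization and after median centring. In the dimmest class 21.1% were higher and 6.31% lower, and in the brightest 4.02% and 30.2%, with the deposited scaling.

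Differences found in 2 transfections were then read in the third, whose 4 arrays had no part in the choice. Genes higher in each of 2 transfections, with an unadjusted p under 0.05 in the limma fit to their 8 arrays, were also higher in the third in 1140 of 2021 cases (56.4%), with 57.6% in lipofectamine, 61.7% in scramble and 50.7% in antagomir-21. Over all genes, 49.3%, 51.4% and 47.3% were higher in those transfections, and of genes below the median signal 55.2%, 58.3% and 57.2%. How many of the chosen genes lay below the median signal was not counted, whereas 79.8% of the 976 genes above did. The median difference of the chosen genes was 2.60, 2.46 and 2.54 in the arrays that chose them and 0.33, 0.54 and 0.04 in the arrays held out. Genes chosen as lower were also lower in the third transfection in 383 of 832 cases (46.0%, range 42.9% to 48.0%), and their median difference there was 0.21, 0.12 and 0.09, against −2.36, −2.22 and −2.25 in the arrays that chose them. Over all genes, 50.7%, 48.6% and 52.7% were lower in lipofectamine, scramble and antagomir-21, and of genes below the median signal 44.8%, 41.7% and 42.8%. Across all genes, the exosome difference correlated between transfections with r of 0.121 for lipofectamine and scramble, −0.0108 for lipofectamine and antagomir-21, and 0.0258 for scramble and antagomir-21, and no array is shared within these pairs. The interaction of exosome and transfection passed an adjusted p under 0.05 by limma in 0 genes and an unadjusted p under 0.05 in 898 (4.94%), of which 23 were among the 872 genes above. Those 872 genes were chosen on the same arrays for one direction in all 3 transfections, so a low number among them follows from the choice.

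**Figure D3:**
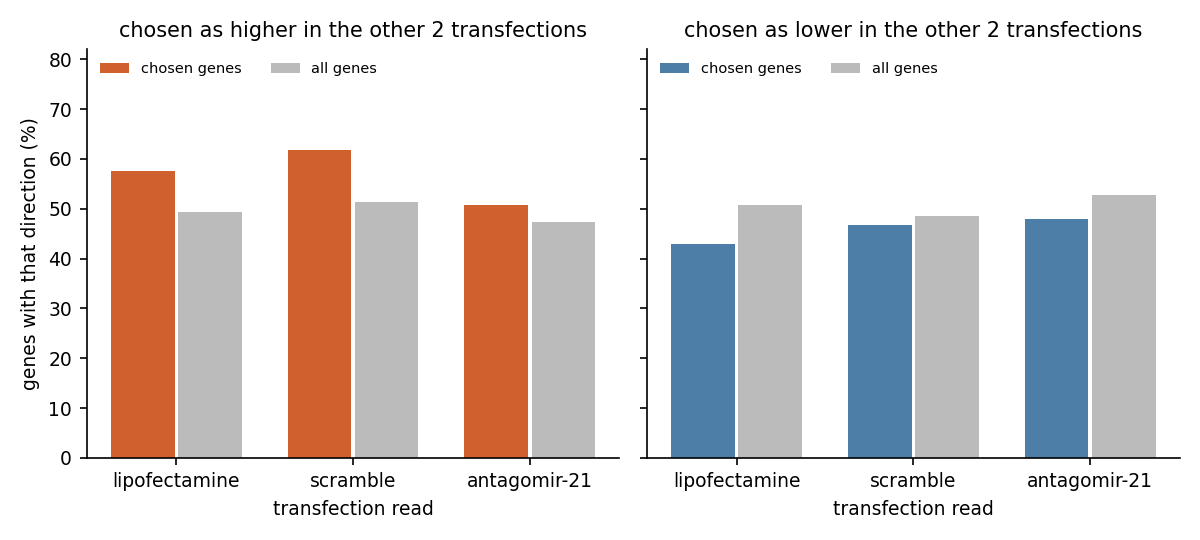
Percent of genes chosen as higher (left) or lower (right) with miR-21 exosomes in 2 transfections that had the same direction in the 4 arrays of the third, beside the percent of all 18193 genes with that direction (gray). Genes chosen as higher kept their direction in 50.7% to 61.7% and genes chosen as lower in 42.9% to 48.0%.

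The genes that the study followed were led by receptors and mediators of TGF-β signaling, in which TGF-β binds the type 2 receptor, which recruits and activates the type 1 receptor. *Tgfbr1*, the type 1 receptor, had a lowest, median and highest log2 signal of 8.78, 10.15 and 11.00 with miR-21 exosomes and 10.02, 10.95 and 11.24 with GFP exosomes. It was lower in each transfection (−0.52, −1.09 and −0.93), with a difference of −0.85 (SE 0.47, adjusted p = 0.945 from limma), and its arrays overlapped. *Tgfbr2*, the type 2 receptor, had 10.04, 11.51 and 12.56 against 10.99, 11.69 and 12.17, a difference of −0.27 (SE 0.55), and its direction was not shared by the transfections (0.19, −0.45 and −0.54). The co-receptor *Tgfbr3* (−0.10, SE 0.86), the ligand *Tgfb1* (−0.14, SE 0.88) and the inhibitory *Smad7* (−0.61, SE 0.94) also changed sign between transfections. *Nfya*, a subunit of the transcription factor NF-Y, differed by 0.56 (SE 0.69) and changed sign between transfections (0.34, 1.86 and −0.53). Its other probe sets were higher with miR-21 exosomes in all 3 transfections (2.16 and 0.95). None of the 15 genes of the study that were measured, of 16 sought, had an unadjusted p under 0.05, against 3.84% of all genes higher and 1.53% lower.

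Among the inflammatory genes of the study, *Il10*, an antiinflammatory cytokine, was higher in each transfection (0.63, 2.91 and 0.79), with a difference of 1.44 (SE 0.93). Its arrays overlapped widely, from 5.33 to 9.95 with miR-21 exosomes and from 3.27 to 8.31 with GFP exosomes. The chemokine *Ccl2*, which draws monocytes, was lower in each (−0.24, −1.07 and −0.80), with a difference of −0.70 (SE 0.48), and so was *Mrc1*, the mannose receptor CD206 of alternatively activated macrophages (−0.16, −0.45 and −0.30; difference −0.30, SE 0.46). *Il6* (−0.94, SE 1.19), *Tnf* (−0.14, SE 0.97), the *Ccl2* receptor *Ccr2* (−0.59, SE 0.69) and the TNF receptor family member *Tnfrsf19* (−0.31, SE 0.97) did not keep a direction. The other probe sets of *Ccr2* differed by 0.29, 0.80 and 0.95, and the one at 0.80 was higher in each transfection. The within-transfection differences of *Il6* ran from −3.76 with lipofectamine to 3.06 with scramble.

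**Figure D4:**
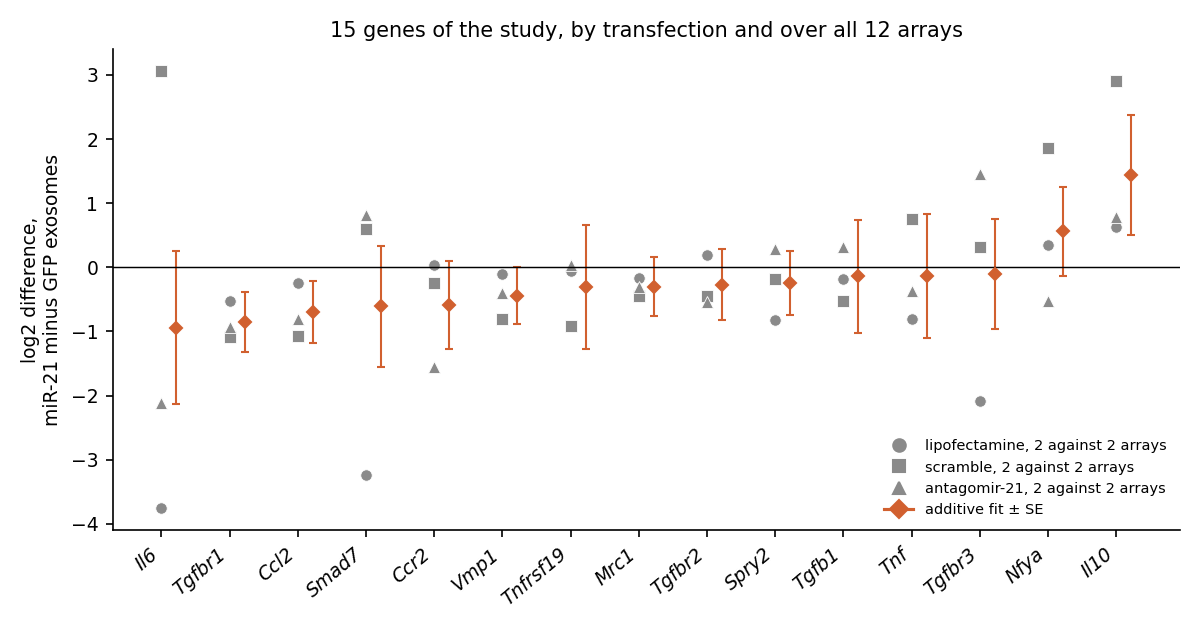
Log2 difference, miR-21 minus GFP exosomes, of 15 genes of the study; gray symbols are the differences of 2 against 2 arrays within each transfection, and orange diamonds the additive fit over 12 arrays with its SE. *Tgfbr1*, *Ccl2*, *Mrc1* and *Vmp1* are below 0 and *Il10* above 0 in all 3 transfections.

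Of 35 known targets of miR-21 that were measured, 26 had a lower fitted signal with miR-21 exosomes, at a median difference of −0.23, against 51.0% of all genes lower and a median of −0.02. The list was bright, with a median signal of 9.43, and the median difference of the brightest class of genes was −0.24. The list median was −0.11 after quantile normalization and −0.01 without replicate 1 of lipofectamine and miR-21 exosomes. By limma 0 of the 35 had an adjusted p and 0 an unadjusted p under 0.05. In all 3 transfections 4 were lower, 11.4% against 14.7% of all genes, and 3 higher, 8.57% against 13.5%. *Pdcd4* was the leading one, with a lowest, median and highest log2 signal of 11.55, 12.42 and 12.73 with miR-21 exosomes and 12.22, 12.94 and 13.26 with GFP exosomes, a difference of −0.63 (SE 0.44). The other 3 that were lower throughout were *Cdk2ap1* (−0.35, SE 0.45), an inhibitor of the cyclin-dependent kinase CDK2, the small GTPase *Rhob* (−0.31, SE 0.44) and the stress-induced *Sesn1* (−0.37, SE 0.64). *Spry2* differed by −0.24 (SE 0.50). *Cdc25a*, a phosphatase that drives the cell cycle (0.92, SE 0.64), and *Fasl*, the Fas ligand (0.46, SE 0.69), were higher throughout. The median of the list was −0.29 with lipofectamine, −0.18 with scramble and 0.04 with antagomir-21.

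All 17 pathway lists, the known targets included, had a median difference below 0, and 16 of them had more members lower than higher in all 3 transfections. Of all genes 14.7% were lower and 13.5% higher throughout. The shares were 30.2% and 4.02% in the brightest class (mean signal from 9.27) and 12.2% and 12.4% in the class below it. The median signal of these lists ran from 8.28 (proinflammatory genes) to 12.69 (cytosolic ribosomal proteins), and the part of brightness in their direction was not tested. After quantile normalization the medians of MHC class II genes, cytosolic ribosomal proteins and respiratory chain genes were above 0 (0.03, 0.11 and 0.04). Of the TGF-β pathway 6 of 28 members were lower throughout, among them *Tgfbr1*, the signal transducers *Smad4* (−0.61, SE 0.43) and *Smad1* (−0.68, SE 0.49) and the activin receptor *Acvr2a* (−0.51, SE 0.47), and 2 were higher, among them the inhibitory *Smad6* (1.93, SE 1.03). The median was −0.26, and 0 members had an unadjusted p under 0.05.

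Genes of inflammation and macrophage activation did not part into a higher and a lower set. Throughout the transfections 14.7% of all genes were lower and 13.5% higher, and at an unadjusted p under 0.05 1.53% were lower and 3.84% higher. The list of NF-κB and Toll-like receptor genes had 11 of 33 members (33.3%) lower throughout, among them *Cd14*, a co-receptor for endotoxin (−0.80, SE 0.58). The median signal of this list (9.65) lay in the brightest class, where 30.2% of genes were lower throughout. The list median was 0.14 with lipofectamine, −0.19 with scramble and −0.52 with antagomir-21. Its 1 member higher throughout, *Tlr6*, a receptor for bacterial lipopeptides, had an unadjusted p under 0.05 and lay from 8.55 to 9.65 with miR-21 exosomes and from 3.99 to 9.33 with GFP exosomes (difference 2.27, SE 0.93). Of 28 proinflammatory genes 2 were lower throughout, the chemokines *Cxcl10* (−1.43, SE 0.78) and *Ccl2*, and 1 was higher. Of the 24 genes of alternative activation 7 were lower, led by the folate receptor *Folr2* (−1.30, SE 0.51, unadjusted p under 0.05), and 2 were higher, *Il10* and *Stab1*. Of 35 interferon-stimulated genes 5 were lower and 0 higher. *Dhx58*, a regulator of RNA sensing, led these (−2.0, SE 0.67), but both of its other probe sets had the opposite sign (2.73 and 0.15).

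The unfolded protein response, by which cells adjust protein folding in the endoplasmic reticulum, had the largest share of members lower throughout of the 17 pathway lists, 11 of 29 (37.9%), with 0 higher, with a median of −0.27. Lower throughout were 14.7% of all genes and 30.2% of the brightest class. The median signals of this list (10.09), of heat shock and oxidative stress genes (10.58) and of cholesterol genes (9.86) lay in that class. At an unadjusted p under 0.05, 1.53% of all genes were lower. Of the unfolded protein response, the chaperones *Calr* (−0.82, SE 0.58) and *Pdia3* (−0.80, SE 0.49) and the transcription factor *Atf4* (−0.64, SE 0.44) were among the 11 lower members. *Manf*, a secreted protein induced by endoplasmic reticulum stress, had the only unadjusted p under 0.05 of the list. It had a lowest, median and highest log2 signal of 6.68, 9.69 and 9.91 with miR-21 exosomes and 9.98, 10.41 and 10.92 with GFP exosomes (difference −1.41, SE 0.59, adjusted p = 0.903 from limma), so that its arrays came close without overlapping. Heat shock and oxidative stress genes had 9 of 26 lower, among them *Hmox1*, heme oxygenase (−1.29, SE 0.77), and *Txnrd1*, thioredoxin reductase (−0.86, SE 0.47). Of 18 genes of cholesterol synthesis and uptake, 16 were lower in the fit and 5 lower throughout, at a median of −0.41, the lowest of the 17 pathway lists with the deposited scaling (after quantile normalization it was −0.35, and that of proinflammatory genes −0.48). The mevalonate enzymes *Mvd* (−1.92, SE 0.81) and *Fdps* (−2.13, SE 0.89) had an unadjusted p under 0.05, and the other probe set of *Fdps* was higher by 2.31. The medians of the unfolded protein response and of cholesterol genes were 0.00 and 0.04 with lipofectamine, −0.53 and −0.46 with scramble, and −0.70 and −0.50 with antagomir-21.

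Genes of vesicles and of the microRNA machinery were read as the machinery that exosomes and their cargo meet. Of 23 vesicle and exosome genes, the tetraspanins *Tspan6* (3.26, SE 0.83) and *Cd9* (1.70, SE 0.72) were higher and *Tspan4* (−1.23, SE 0.44) and *Hgs*, which sorts cargo into multivesicular bodies (−1.51, SE 0.68), lower at an unadjusted p under 0.05, each in all 3 transfections. These were 2 of 23 in each direction, where 3.84% of all genes were higher and 1.53% lower. The other probe set of *Tspan6* differed by 0.49 and did not keep a direction over the transfections. *Tspan4* had 6.92, 8.22 and 8.85 with miR-21 exosomes and 8.83, 9.38 and 9.61 with GFP exosomes. Of 15 genes of the microRNA machinery 5 were lower throughout and 0 higher, at a median of −0.36. Throughout the transfections 14.7% of all genes were lower and 13.5% higher, and 30.2% and 4.02% of the brightest class. The genes of the microRNA machinery had a median signal of 9.35. The 5 lower genes included *Prkra*, a partner of Dicer (−1.65, SE 0.69, unadjusted p under 0.05), *Xpo5*, the exporter of microRNA precursors (−0.85, SE 0.65), and the argonaute *Ago1* (−0.56, SE 0.47). Lysosome and endocytosis genes had 10 of 31 lower and 1 higher throughout, with *Psap*, prosaposin (−0.69, SE 0.58), and *Lamp2* (−0.54, SE 0.52) among the lower, but the median was −0.04 after quantile normalization, against −0.27. Of 29 cell cycle genes 8 were lower and 4 higher, among them the replication helicase subunit *Mcm4* (−1.02, SE 0.47) and the mitotic kinase *Aurka* (1.62, SE 0.88).

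**Figure D5:**
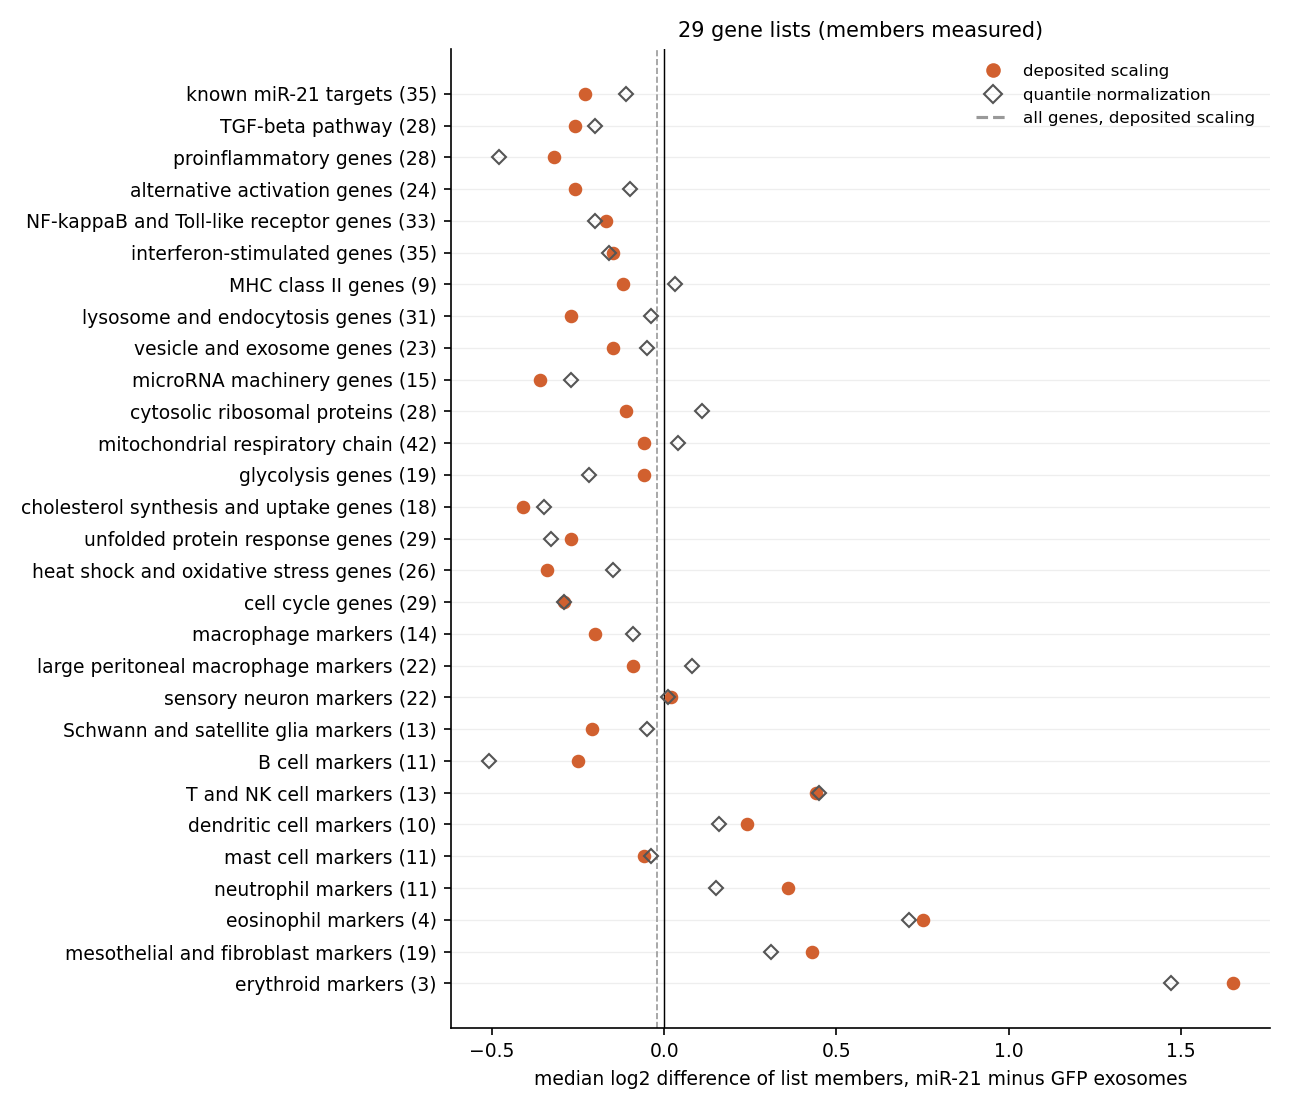
Median log2 difference, miR-21 minus GFP exosomes, of the members of 29 gene lists (number measured in parentheses), with the deposited scaling (filled circles) and after quantile normalization (open diamonds); the dashed line is the median of all genes. All 17 pathway lists, from known miR-21 targets down to cell cycle genes, lie below 0 with the deposited scaling, and the largest medians belong to lists of blood and mesothelial cells.

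Markers of cells other than macrophages, several of them among the leading genes, were mostly dim. Of 13 T and NK cell markers, 3 were higher throughout, *Cd6*, *Gzma* and *Ncr1*, an activating receptor of NK cells (1.91, SE 0.83), each at an unadjusted p under 0.05, and 0 were lower. Higher throughout were thus 23.1% of the list, against 13.5% of all genes and 21.1% of the dimmest class, and 11 of the 13 markers lay below the median signal. *Cd6* and *Gzma* are leading genes of the comparison, and the list that holds them was chosen with earlier results of these data known. Its share therefore rests partly on those genes and is no separate support for them. The defining T cell genes did not keep a direction across the transfections. With miR-21 and GFP exosomes, *Cd3e* had a mean log2 signal of 8.28 and 7.84 (1 array with GFP exosomes at 3.14, the others from 8.42 to 8.97), *Cd3d* 5.61 and 5.42, and *Cd3g* 6.36 and 7.46. The mean of the list on an array ran from 6.42 to 7.82 with miR-21 exosomes and from 5.73 to 7.24 with GFP exosomes, and its part in the signals of *Cd6* and the granzymes was not tested. In a bulk sample more cells of a type and more RNA per cell cannot be told apart.

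Of 19 mesothelial and fibroblast markers 6 were higher throughout, among them the keratins *Krt8* (2.0, SE 0.84) and *Krt18* (1.42, SE 0.63) at an unadjusted p under 0.05, and 1 was lower, with a list median of 0.43. Higher throughout were 31.6% of the list, against 13.5% of all genes and 21.1% of the dimmest class, with 13 of the 19 below the median signal, and 3.84% of all genes were higher at the unadjusted threshold. The mesothelial *Upk3b* lay at 6.11 against 6.64 and the collagen gene *Col1a1* at 8.82 against 8.83. Of 11 neutrophil markers 4 were higher and 0 lower (median 0.36), led by *Ngp*, a granule protein (1.98, SE 0.92), while *S100a8* lay at 9.04 against 8.84. Higher throughout were thus 36.4% of this list, against 13.5% of all genes and 18.7% of genes below the median signal, where 7 of the 11 lay. The 3 erythroid genes measured had a median of 1.65, with *Alas2*, the first enzyme of heme synthesis in red cells (2.12, SE 0.94), at an unadjusted p under 0.05, where 3.84% of all genes were higher. Sensory neurons gave the exosomes, and of 22 of their markers 2 were higher and 2 lower throughout (9.09% each), at a median of 0.02. Of all genes 13.5% were higher and 14.7% lower throughout. Below the median signal, where 16 of the 22 lay, 18.7% of genes were higher and 8.19% lower. *Uchl1*, a ubiquitin hydrolase of neurons, was higher (2.63, SE 0.81, unadjusted p under 0.05), from 7.47 to 9.39 with miR-21 exosomes and from 3.72 to 8.17 with GFP exosomes, whereas the nociceptor channel *Scn10a* lay at 5.75 against 5.27 and the neurofilament *Nefl* at 6.96 against 6.97. Of 14 macrophage markers 3 were lower throughout and 0 higher, at a median of −0.20, led by the transcription factor *Spi1* (−1.66, SE 0.81). Lower throughout were thus 21.4% of this list, against 14.7% of all genes. Its median signal (11.82) lay in the brightest class, where 30.2% of genes were lower throughout. Of 11 B cell markers *Pax5* was higher (3.14, SE 0.84) and *Cr2* lower (−1.93, SE 0.77) at an unadjusted p under 0.05, as were 3.84% and 1.53% of all genes. The other probe set of *Pax5* differed by −0.41, and the mean of its probe sets by 1.37.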

How the data were processed

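RNA of PMs was amplified and labeled with NuGEN kits per the labels and hybridized to Affymetrix Mouse 430V2 arrays, 1 per sample, 2 per group in 6 groups. The study's methods name a different kit, WT Pico Amplification from Thermo Fisher Scientific. The deposited values are log2 signals per probe set. The study's methods describe RMA with quantile normalization and median polish by the authors, whereas the values show arrays scaled to one linear mean with 2% trimmed at each end and not quantile normalized, so array distributions still differ. The sources used here do not name the software behind the deposited values. The number of arrays limits the precision.

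Of 45037 probe sets, 34945 had 1 gene symbol, 932 several and 9160 none in the platform table used here, and 34741 symbols were updated through gene IDs. Each of 18193 genes was represented by its brightest probe set, judged by the mean of all 12 arrays, with no filter on dim genes. limma 3.58.1 in R 4.3.3 (lmFit, eBayes) was fitted to all 12 arrays with transfection and exosome as additive terms, which leaves 8 residual degrees of freedom, and p-values were adjusted over all genes by the Benjamini-Hochberg method. Interaction and within-transfection differences came from a fit of 6 group means. A gene lay the same way when the difference of its group means had one sign in the 3 transfections. All tests were two-sided. The scripts were tested on simulated data.

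The genes named are the 12 with the smallest p in each direction among those that lay the same way, the 8 in each direction at or above the median signal, 16 genes of the study, up to 5 members per direction of each list, and *Csf1r*, *Adgre1* and *Lyz2*. The cell type markers *Cd3d*, *Cd3e*, *Cd3g*, *Upk3b*, *Col1a1*, *S100a8*, *Scn10a* and *Nefl* are members of the lists named outside these rules. The comparison, the 29 gene lists and these rules were chosen with earlier results of these data known, the lists from general knowledge. The alternatives tried were quantile normalization, median centring, genes at or above the median signal alone, the mean of all probe sets, a replicate block, a variance trend, group means, a per-gene test with equal variances and without transfection, and leaving out each array.

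Replicate numbers were checked for pairing by correlating the deviations of equally numbered arrays from their group means. The 15 correlations ran from −0.192 to 0.167, and 1 was over 0.1, so the numbers were not taken to pair the arrays.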

Additional observations from a re-analysis of the deposited data

Results flagged for a closer look

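In 22 of 218 sets of 6 arrays, 1 array stood apart from the other 5, its gap to the nearest of them taking more of the range than a 95% limit allows. Chance gives such a set about 1 time in 20. The share of the range taken by the gap is given for each gene.

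Arrays with GFP exosomes accounted for 13 of the sets. Scramble with GFP exosomes replicate 1 was the lone array for *Fdps* (0.872, at 5.18 with the others from 9.11 to 9.69), *Nfya* (0.786), *Slc25a31* (0.728), *Cd9* (0.71), *Fbxo11* (0.664), *Tgfbr1* (0.659, at 10.02 with the others from 10.82 to 11.24) and *Tgfb1* (0.641), being the lowest in each, and for *Pax5* (0.78), where it was the highest. Scramble with GFP exosomes replicate 2 was lowest for *Il6* (0.829, at 3.11 with the others from 7.65 to 8.59). Antagomir-21 with GFP exosomes replicate 1 was lowest for *Krt18* (0.758) and *Col1a1* (0.72), and replicate 2 was lowest for *Cd3e* (0.907, at 3.14 with the others from 8.42 to 8.97) and highest for *Alas2* (0.651).

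With miR-21 exosomes, lipofectamine replicate 1 was lowest for *Lcn11* (0.812, at 4.92 with the others from 8.31 to 9.10), *Tspan6* (0.765) and *Smad7* (0.757). Antagomir-21 replicate 1 was lowest for *Ccr2* (0.845) and *Col1a1* (0.791) and highest for *Ttc27* (0.7) and *B4gat1* (0.679), antagomir-21 replicate 2 was lowest for *Pax5* (0.705), and scramble replicate 2 was highest for *Pole* (0.636). The cause was not tested for any of these arrays.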

How the results depend on the processing

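No gene passed an adjusted p under 0.05 by limma with the values as deposited, so no called direction could reverse. The number at an adjusted p under 0.05 was 1 after quantile normalization (*Cd6*), 0 to 1 with an array left out (1, *Prss52*, without antagomir-21 and miR-21 exosomes, replicate 2) and 0 in the other alternatives, a per-gene test with equal variances and without transfection included (lowest adjusted p 0.0783). Median centring gave 462 genes higher and 474 lower at an unadjusted p. Genes at or above the median signal alone gave 336 (161 higher, 175 lower), 2676 genes that lay the same way (746 higher) and 23 without overlap. With an array left out, 813 to 1216 genes had an unadjusted p under 0.05, 603 to 800 higher and 203 to 478 lower (478 without replicate 2 of antagomir-21 and miR-21 exosomes), 4412 to 5553 lay the same way, and 67 to 136 did not overlap, with fewer arrays to overlap. Genes chosen in 2 transfections kept their direction in the third in 52.7% to 58.6% (higher) and 42.4% to 52.9% (lower). The mean of all probe sets moved *Eqtn* to −0.47, *Fhl1* to −0.33, *Mras* to 0.06 and *Ppfia4* to 0.08.

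With the replicate number as a replicate block, 1001 genes had an unadjusted p under 0.05 (730 higher, 271 lower), and with pairs of equal number within a transfection as the block 1016 (748 higher, 268 lower). The block changed no call, with 0 genes at an adjusted p under 0.05 in both.

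The median SE of a difference was 0.78 on the log2 scale, 0.94 in the dimmest and 0.50 in the brightest of 4 classes of signal, and with 12 arrays differences of several SE did not pass an adjusted p under 0.05. Of the 976 genes at an unadjusted p under 0.05, 79.8% lay below the median signal, where no detection call was used here.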
